A study of Arabidopsis thaliana with 12 samples.

Results

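SPCH (AT5G53210), LHW (AT2G27230), ATMYC1 (AT4G00480) and NAI1 (AT2G22770) are genes of the basic helix-loop-helix (bHLH) family of Arabidopsis transcription factors, each tied to the making of a different cell type or cell structure. They were taken as the probe sets that name one of these genes alone in the platform names table, which gave 4 probe sets, 1 for each gene, out of 22810 on the array. All 4 passed the filter on low signal, along with 15922 probe sets in all. The genes were chosen by earlier results of these arrays, and the measured values behind that choice are taken to be the changes with gibberellin in ga-1, where all 4 lie among the 109 probe sets called as lower. Values from that comparison are therefore a description and carry no p-values.

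Transcript levels had been measured on Affymetrix arrays in whole light-grown seedlings, 7 days old and raised on growth medium. The ga-1 mutant, the insertion line SALK_109115, is impaired in making the growth hormone gibberellin (GA), and the triple mutant gid1a-1 gid1b-1 gid1c-2 (gid1 below) has a lesion in each of the 3 genes for the GA receptor. Each mutant was mock-treated or treated with 100 µM GA3, a bioactive gibberellin, in both cases over 1 h, and the resulting 4 groups hold 3 arrays apiece, independent biological replicates according to the design text. Each mutation is represented by 1 line or allele combination, both mutants lack normal GA signalling in mock, and none of the 12 arrays is of a wild type.

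bHLH proteins bind DNA as pairs, through a basic region, and the choice of partner sets which genes they act on. SPCH starts the stomatal lineage, the series of leaf epidermal divisions that ends in a pair of guard cells. ATMYC1 works with MYB proteins and a WD40 protein in the fate of trichomes and root hairs. LHW pairs with TMO5-type bHLH proteins to drive divisions that widen the young vascular strand, in part by raising local cytokinin production. NAI1 is needed for ER bodies, spindle-shaped compartments of the endoplasmic reticulum that hold beta-glucosidases such as PYK10 and are plentiful in seedlings. GA acts by binding the GID1 receptors, which then bring the DELLA repressors to the F-box protein SLY1 for degradation.

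The values are MAS5 signals, brightness on a linear scale that the authors had set to a common mean on every array. The median log2 value of an array was 7.41 to 7.56. The mutant labels were checked on the receptor genes: in mock, GID1A had a mean signal of 679 ± 35.9 in ga-1 and 60.7 ± 15.9 in gid1 (SD, n = 3), and GID1B of 514 ± 48.9 and 62.9 ± 13.8. With GA3, GID1A was at 213 ± 21.0 in ga-1 and 60.1 ± 4.30 in gid1. GID1B, at 80.0 ± 7.20 and 94.5 ± 16.9 with GA3, did not set the mutants apart. The treatment labels are not checked by these values. Of the tissue markers that could be named, the green-tissue gene RCA, rubisco activase, had signals from 20341 to 28560 over the 12 arrays. Of the 3 named genes on the list of root and root-hair markers, group means were 77.3 to 122 for EXPA7 and 137.1 to 146 for EXPA18, root-hair expansin genes, and 11635 to 13986 for PYK10, which is also on the ER-body list. None of the 6 listed markers of xylem and phloem and 1 of the 5 of guard cells, the guard-cell factor gene FMA (FAMA), had a named probe set. The mean log2 value of 3 seed-reserve markers (PAP85, ICL and AT3G02480, of 9 listed) was 8.28 to 9.61 in gid1 with GA3, 5.33 to 6.59 in gid1 mock, 5.63 to 6.89 in ga-1 with GA3, and 5.87, 9.12 and 7.05 in ga-1 mock replicates 1, 2 and 3. The part of this seed signal in the values below was not tested beyond the fit with these markers as a covariate given under the dependence on processing.

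SPCH fell to about 48.3% of its mock level within 1 h of GA3 in ga-1. Its signals were 289.1, 254.2 and 203.9 in ga-1 mock and 100.1, 139.8 and 121.3 in ga-1 with GA3. The highest GA3 array thus stayed below the lowest mock array. Group means were 249 ± 42.8 and 120.4 ± 19.9 (SD, n = 3), a log2 change of -1.05 ± 0.23 (SE). Of the 4 genes SPCH had the largest fitted fall, and it ranked 62nd by size among the 109 falls called.

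ATMYC1 fell to 63.0% of mock, the smallest fitted change of the 4. It gave 336, 293.6 and 288 in ga-1 mock and 186.5, 211.3 and 180.5 with GA3. These groups were tight and well apart, at 306 ± 26.2 and 193 ± 16.3 (SD, n = 3), with a log2 change of -0.67 ± 0.14 (SE). In size this fall ranked 101st of 109.

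LHW had the highest mean signal of the 4 in every group and fell to 59.1% of mock in ga-1. Its ga-1 mock arrays read 538, 564 and 488.5, and its ga-1 arrays with GA3 read 314.3, 275.7 and 349.9. No array of one group reached into the other. The means were 530.2 ± 38.4 and 313 ± 37.1 (SD, n = 3), a log2 change of -0.76 ± 0.15 (SE), the 89th largest of the 109 falls. Signals of different probe sets depend on their probes, so the order of the genes by signal is not an order of transcript number.

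NAI1 fell to 54.7% of mock in ga-1 and was the most variable of the 4 in ga-1 mock. The ga-1 mock arrays gave 354.1, 362.3 and 550.5, of which replicate 3 stood far above the others, and those with GA3 gave 220.0, 190.4 and 282.8, again with replicate 3 highest. The groups did not overlap, though the highest GA3 array and the lowest mock array lay closer, at 0.32 on the log2 scale, than for the other genes. The means were 422 ± 111.1 and 231 ± 47.2 (SD, n = 3), with a log2 change of -0.86 ± 0.19 (SE), 79th of the 109 falls.

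**Figure D1:**
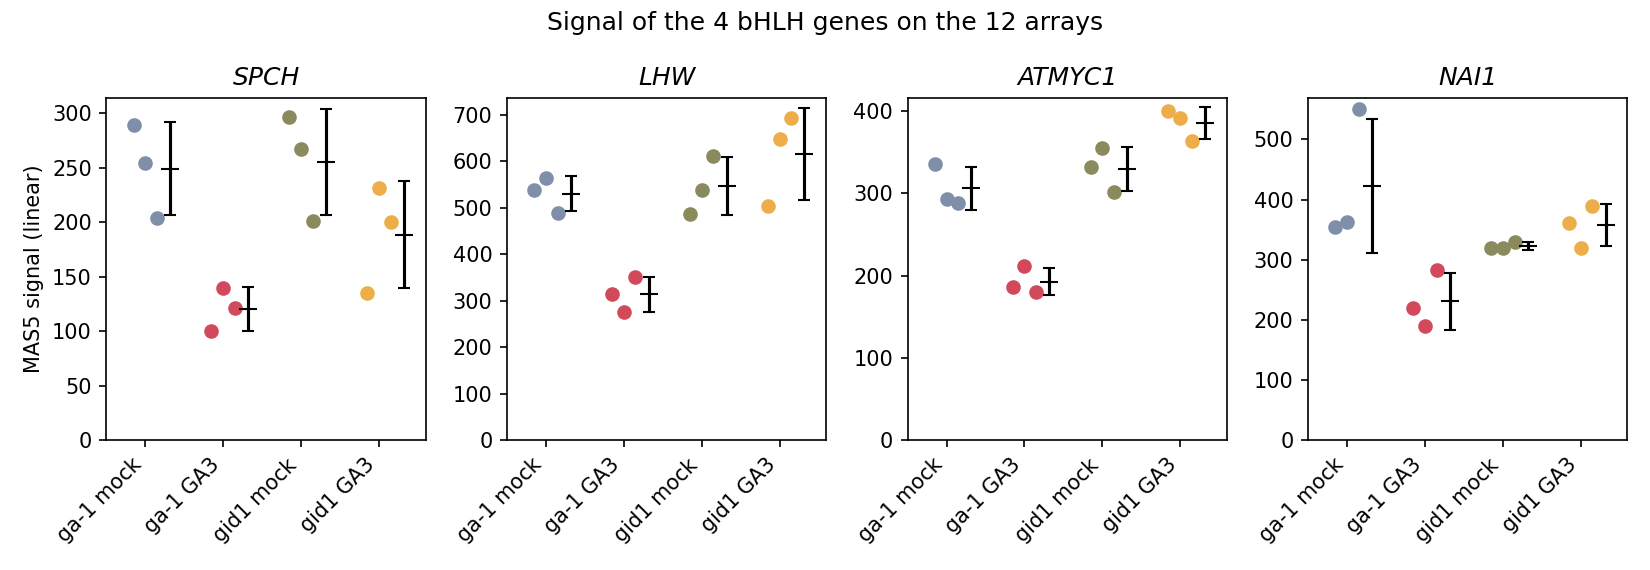
MAS5 signal (linear, y axis) of SPCH, LHW, ATMYC1 and NAI1 in the 4 groups (x axis), with a point per array in replicate order and the mean ± SD (n = 3) in black beside it. In every panel the 3 arrays of ga-1 with GA3 lie below the 3 of ga-1 mock, in the comparison that chose the genes. For LHW, ATMYC1 and NAI1 they also lie below those of both gid1 groups.

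Over all probe sets tested, limma called 0.81% in this comparison, 0.685% as lower and 0.126% as higher, and all 4 genes are among the falls. Arrays with GA3 lay wholly below mock arrays for 7.17% of probe sets, so the lack of overlap alone was not rare. Since membership rests on this comparison, nothing is read from these counts. The call of SPCH was lost without any single one of the 6 arrays (log2 change from -1.18 to -0.92). Those of LHW (-0.85 to -0.67), ATMYC1 (-0.73 to -0.60) and NAI1 (-1.01 to -0.65) were lost without any one but 1 of the 6, the exception being ga-1 GA3 replicate 3 for LHW and NAI1 and ga-1 GA3 replicate 2 for ATMYC1; each was also lost under other settings, such as the fit to the compared groups alone for SPCH, ATMYC1 and NAI1. In whole seedlings, fewer cells of a type and less RNA per cell cannot be told apart.

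The gid1 seedlings show what the genes did when GA3 was given with all 3 receptor genes mutated, and their group means come from other arrays than those of ga-1. The spread behind the tests was estimated over all 12 arrays, so the gid1 arrays also entered the error of the ga-1 changes. Here 0 of the 4 genes was called by limma, and the background was 0% of 15922 probe sets. At an unadjusted p under 0.05 there were 0 of the 4 genes and 838 of all probe sets. The 95% intervals below come from the same fit and show how large a change these arrays leave possible.

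LHW was not called in gid1. It gave 487.1, 538.9 and 611 in mock and 503.9, 648.4 and 692.6 with GA3, groups that overlapped, with higher values for GA3 in 7 of 9 pairs of arrays. The log2 difference was 0.17 ± 0.15 (SE), with a 95% interval from -0.16 to 0.49 and a limma adjusted p of 0.95. The lower bound corresponds to a fall of 10.4%. The fitted fall in ga-1 was 41.1% (95% interval of the change from -52.9% to -26.3%), in the comparison that chose the gene. The choice favoured a large fall there, so these intervals do not test whether the responses differed. Leaving out 1 array moved the log2 difference between 0.073 (without gid1 GA3 replicate 3) and 0.30 (without gid1 GA3 replicate 1), and with the seed markers as a covariate its sign turned, to -0.18 ± 0.25 (SE).

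ATMYC1 read 332.5, 354.7 and 302 in gid1 mock and 400.0, 392.1 and 363.5 in gid1 with GA3. The GA3 arrays all lay above the mock arrays, as they did for 4.74% of all probe sets tested. The log2 difference was 0.23 ± 0.14 (SE), with a 95% interval from -0.08 to 0.53, and did not pass the test (limma adjusted p = 0.94). With the seed markers as a covariate it was 0.48 ± 0.25 (SE) and still did not pass. A two-sided exact permutation test reached its floor for groups of 3, p = 0.1.

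NAI1 was at 318.7, 319.1 and 330.2 in gid1 mock, a spread of 2.02% of the mean, and at 361.8, 320.3 and 389.8 with GA3. The ranges overlapped by 1 array pair. The log2 difference was 0.14 ± 0.19 (SE), with a 95% interval from -0.25 to 0.54 (limma adjusted p = 0.96), and was 0.052 with the seed-marker covariate.

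SPCH stood apart from the other genes in gid1, in that its fitted difference was negative. Its signals were 296.3, 267.5 and 201.5 in mock and 135.1, 231 and 199.9 with GA3, lower with GA3 in 8 of 9 pairs of arrays. Replicate 1 of gid1 with GA3, at 135.1, fell within the range of the ga-1 arrays given GA3, while the other GA3 arrays lay near gid1 mock replicate 3. The log2 difference was -0.45 ± 0.23 (SE), with a 95% interval from -0.94 to 0.04 and a limma adjusted p of 0.94. It was -0.23 without gid1 GA3 replicate 1 and -0.62 without gid1 GA3 replicate 2. The interval holds both no change and a change nearly as large as the -1.05 fitted in ga-1, so the arrays do not settle whether SPCH was lower with GA3 in gid1.

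The difference of the responses asks directly whether GA3 acted unequally in the mutants. All 4 differences were negative, with ga-1 minus gid1 at -1.0 ± 0.26 (SE) for NAI1, -0.93 ± 0.22 for LHW, -0.89 ± 0.20 for ATMYC1 and -0.60 ± 0.33 for SPCH. None passed limma's adjusted threshold, with adjusted p between 0.11 for ATMYC1 and 0.79 for SPCH, and the background was 0.22% of probe sets called, 0.188% as negative and 0.0314% as positive. At an unadjusted p under 0.05 there were 3 of the 4 genes, all but SPCH, and 1039 of all probe sets. The ga-1 arrays on which the genes were proposed enter this difference too, so it does not stand as independent support. With the seed markers as a covariate the difference was -0.47 ± 0.34 (SE) for LHW, -0.88 ± 0.45 for NAI1 and -1.23 ± 0.34 for ATMYC1. It was thus smaller in size than without the covariate for LHW and NAI1 and larger for ATMYC1.

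**Figure D2:**
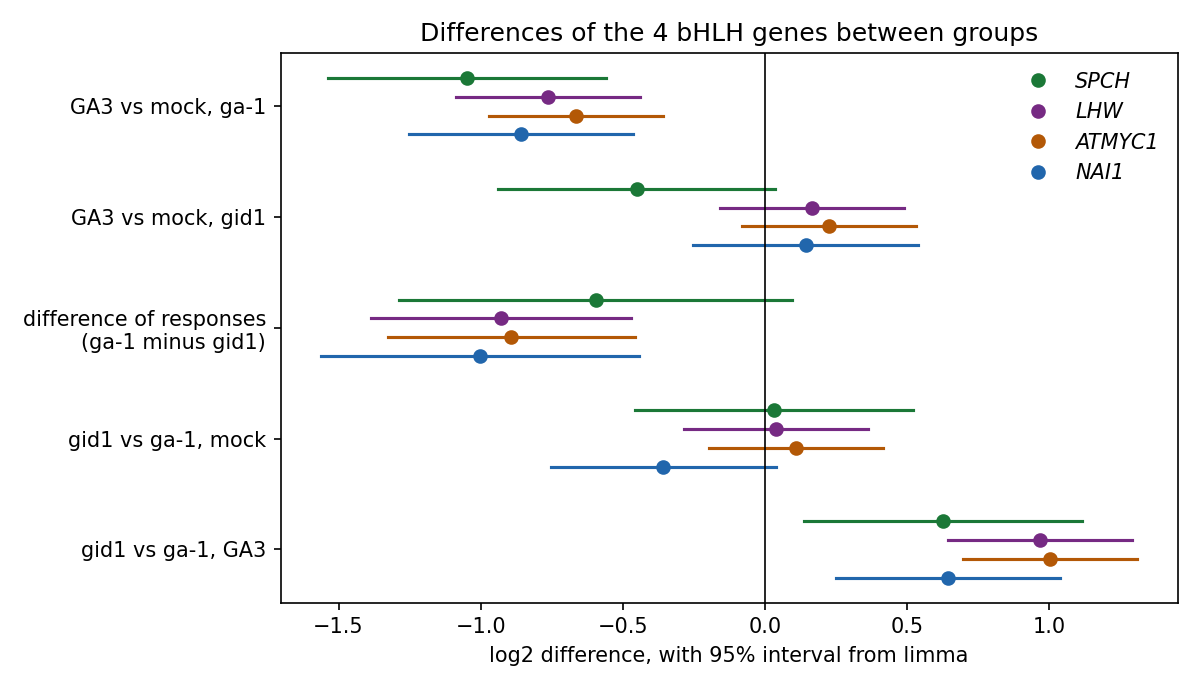
Log2 differences of SPCH, LHW, ATMYC1 and NAI1 (points, x axis) in the 5 comparisons (y axis), with 95% intervals from limma (lines). The intervals of all 4 genes include 0 for GA3 in gid1 and for gid1 against ga-1 in mock. They lie below 0 for GA3 in ga-1, the comparison that chose the genes, where this was built in by the choice. For gid1 against ga-1 with GA3 they lie above 0, though SPCH and NAI1 were not called. For the difference of the responses only that of SPCH includes 0, and none of the 4 was called. The ga-1 GA3 arrays behind the choice enter both of these comparisons.

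Without GA3 the mutants had similar levels of SPCH, LHW and ATMYC1. Log2 differences, gid1 minus ga-1, were 0.03 ± 0.23 (SE) for SPCH, 0.04 ± 0.15 for LHW and 0.11 ± 0.14 for ATMYC1, and the mock arrays overlapped for each. The 95% intervals reached from -0.46 to 0.52, from -0.29 to 0.36 and from -0.20 to 0.42, so differences within those bounds remain possible. NAI1 was the exception in that its gid1 mock arrays, 318.7 to 330.2, all lay below the ga-1 mock arrays, 354.1 to 550.5, as was so for 6.03% of probe sets, while 5.01% lay wholly above. Its log2 difference was -0.36 ± 0.19 (SE) and moved to -0.15 without ga-1 mock replicate 3. None of the 4 was called, where limma called 0.0188% of probe sets, and 0 of the 4 had an unadjusted p under 0.05.

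With GA3 in both mutants, the genes were higher in gid1 by log2 differences of 1.0 ± 0.14 (SE) for ATMYC1, 0.97 ± 0.15 for LHW, 0.64 ± 0.19 for NAI1 and 0.63 ± 0.23 for SPCH. ATMYC1 read 363.5 to 400.0 in gid1 and 180.5 to 211.3 in ga-1, and LHW read 503.9 to 692.6 and 275.7 to 349.9. Those of NAI1, 320.3 to 389.8 and 190.4 to 282.8, were also apart, as were 6.98% of probe sets in this direction and 6.72% in the other. For SPCH, 135.1 in gid1 GA3 replicate 1 overlapped 139.8 in ga-1 GA3 replicate 2. LHW and ATMYC1 were among the probe sets called as higher in gid1. The background was 1.26% of probe sets called, 0.911% as higher and 0.352% as lower, while NAI1 and SPCH missed the threshold. Without ga-1 GA3 replicate 3 NAI1 was called as well, at a log2 difference of 0.80, and with the seed markers as a covariate the call of LHW was lost, at 0.66. This comparison shares the ga-1 GA3 arrays with the first and is given as a description.

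For all 4 genes the lowest group mean was that of ga-1 with GA3, which the choice of the genes favoured. The order of the other groups differed. The order of group means was the same for LHW and ATMYC1, highest in gid1 with GA3 and lowest in ga-1 with GA3, with both mock groups between. The mock groups overlapped for both genes, and gid1 with GA3 overlapped them for LHW and lay wholly above them for ATMYC1. For SPCH the order ran from gid1 mock (255 ± 48.6) over ga-1 mock and gid1 with GA3 (189 ± 48.9) to ga-1 with GA3, and the first 3 of these overlapped, as did the last 2. For NAI1 ga-1 mock was highest, followed by gid1 with GA3 (357 ± 34.97) and gid1 mock (323 ± 6.53), and gid1 with GA3 overlapped both.

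Within groups the genes had no common direction from array to array. Over the 12 arrays Pearson correlations of log2 values between the genes ran from 0.50 for SPCH with NAI1 to 0.85 for LHW with ATMYC1. With group means removed they ran from -0.64 for ATMYC1 with NAI1 to 0.45 for SPCH with ATMYC1, and that of LHW with ATMYC1 was -0.54. These are descriptions of 12 arrays that share the group structure. The low ga-1 GA3 group, which entered the choice of the genes, is part of the correlations over all arrays.

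Genes with the most similar pattern over the 12 arrays were sought among the other 8769 probe sets with 1 gene name that passed the filter. For LHW they were AT5G40540 (Pearson r = 0.96), AT4G36970 (0.95) and AT2G36350 (0.94), and for ATMYC1 they were UGT76E11, a glycosyltransferase gene (0.94), AT5G40540 (0.93) and AT1G79720 (0.91). AT5G40540 thus stood near both, and its mean went from 614 to 236 with GA3 in ga-1 and from 647 to 682 in gid1. For NAI1 the nearest were AT2G44670 (0.88), AT4G16447 (0.87) and AT4G33910 (0.86), and for SPCH AT4G37550 (0.87), AT5G19340 (0.86) and AT4G28180 (0.86). AT5G19340 went from 467 to 205 with GA3 in ga-1 and from 502 to 428 in gid1.

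The most opposite pattern to that of LHW was that of AT5G65300 (r = -0.97), which rose from 147 to 280 in ga-1 and stood at 150 and 127 in gid1. Next was AT3G57800 (-0.92), itself a bHLH gene by the list used here, followed by SRC2 (-0.91). For ATMYC1 the most opposite were AT3G06480 (-0.90), AT5G55180 (-0.89) and AT1G78170 (-0.89). For NAI1 they were AT1G20430 (-0.90), AT4G38710 (-0.87) and AT1G65270 (-0.86), and for SPCH AT1G31730 (-0.84), AT1G65500 (-0.83) and AT5G15950 (-0.82).

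Few other genes of the 4 pathways could be named, and none of those tested was called in any of the 5 comparisons. Of 23 other stomatal-lineage genes, 3 were tested. STOMAGEN, a secreted peptide from the leaf mesophyll that promotes stomata, read 1090.1, 1146.3 and 1021.8 in ga-1 mock and 799.4, 898.8 and 778.5 with GA3. Its ga-1 groups did not overlap, and its log2 difference of -0.40 ± 0.12 (SE) missed the threshold (limma adjusted p = 0.18), with 0.10 ± 0.12 in gid1. MUTE, the bHLH factor that follows SPCH in the lineage, was near the low-signal limit at 61.9 ± 26.2 in ga-1 mock and 55.7 ± 39.4 with GA3 (SD, n = 3). FMA (FAMA), the bHLH factor of the last step to guard cells, had a log2 difference of 0.33 ± 0.20 (SE) in ga-1 and 0.11 ± 0.20 in gid1. MUTE had a log2 difference of -0.50 ± 0.60 (SE) in ga-1. The median of these 3 genes in ga-1 was -0.40, which is the value of STOMAGEN alone, against 0.01 over all probe sets tested. In gid1 their median was 0.11. With so few genes of unlike sign, the median does not describe the lineage.

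Of 22 other genes of the vascular list, 2 were tested, AT5G09460 and AT2G28510. Their log2 differences with GA3 in ga-1 were 0.25 ± 0.22 and 0.23 ± 0.18 (SE). Neither was told apart from no change (limma adjusted p = 0.87 and 0.85), so their sign is not read against that of LHW. The LHW partner gene TMO5 and the cytokinin genes LOG3 and LOG4 could not be named on the array and were not analysed here. Of 26 other epidermal-fate genes, 2 were tested, GIS, a zinc-finger gene of trichome formation, and SIM, a cell-cycle inhibitor gene of trichomes. GIS had log2 differences of -0.45 ± 0.26 (SE) in ga-1 and -0.44 ± 0.26 in gid1, and SIM -0.11 ± 0.17 and -0.13 ± 0.17. TRY, a trichome repressor gene that neighbours SPCH in the genome, was under the low-signal limit, with 52.9 ± 15.6 in ga-1 mock and 36.8 ± 32.9 with GA3 (SD, n = 3).

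The ER-body list was the best covered, with 5 of 18 other genes tested. NAI2, which is required to build ER bodies, was at 3138 ± 192 in ga-1 mock and 3452 ± 607 with GA3 (SD, n = 3), a log2 difference of 0.13 ± 0.13 (SE). PYK10, the main ER-body beta-glucosidase, was at 12307 ± 687 and 13986 ± 64.2, a log2 difference of 0.19 ± 0.12 (SE). Both are known to depend on NAI1 in seedlings, and neither was called as lower at 1 h. The lectin genes JAL22, JAL33 and JAL34, whose proteins associate with PYK10, had log2 differences of -0.05 ± 0.14, -0.13 ± 0.15 and 0.11 ± 0.18 (SE) in ga-1. The median of the 5 was 0.11 in ga-1 and 0.08 in gid1, against 0.01 over all probe sets in each.

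Over the 12 other tested genes of the 4 lists, none reached an adjusted p under 0.05 for GA3 in ga-1 by limma, where 1 of them, STOMAGEN, had an unadjusted p under 0.05. Over all 15922 probe sets 0.81% were called and 1246 had an unadjusted p under 0.05, so both counts are near the background. The bHLH genes that flank NAI1 on one side of the genome, AT2G22750 and AT2G22760, were both under the low-signal limit, with means of 6.60 to 33.0 over the groups, and so was the related AT4G37850.

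**Figure D3:**
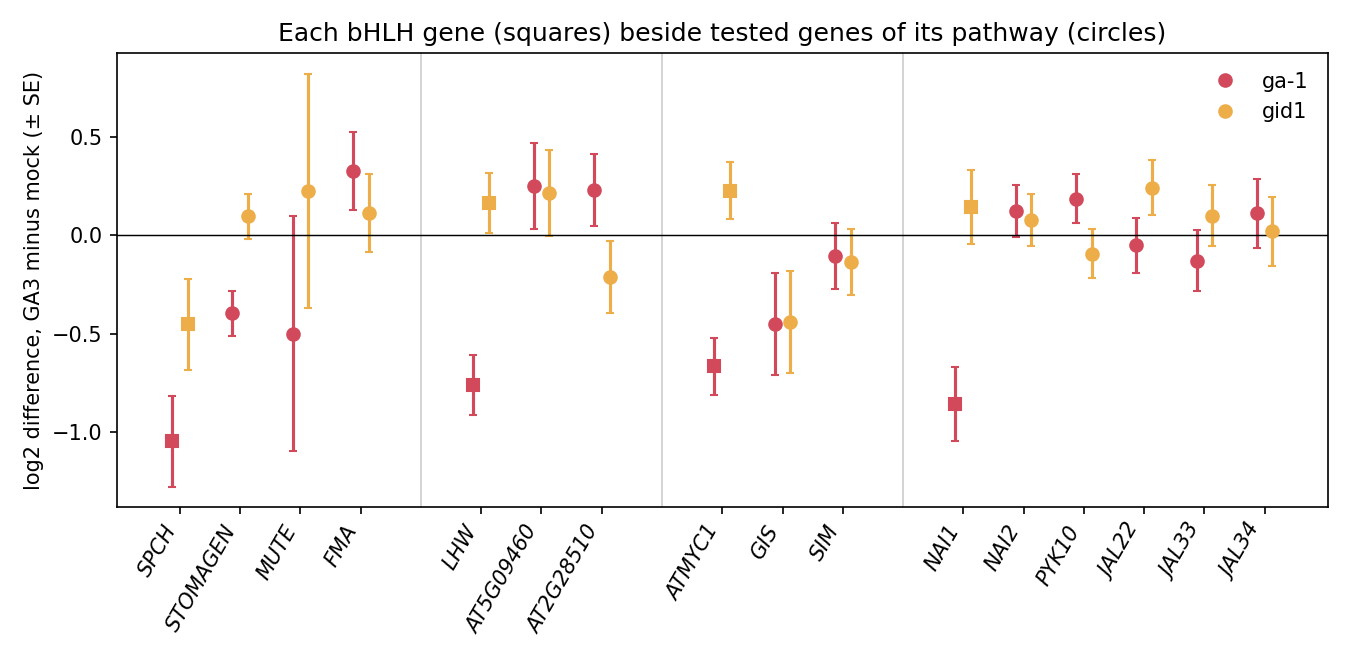
Log2 difference, GA3 minus mock (y axis, ± SE from limma), in ga-1 (red) and gid1 (yellow) for SPCH, LHW, ATMYC1 and NAI1 (squares) and for the tested genes of each one's pathway (circles, x axis). The 4 squares for ga-1, in the comparison that chose these genes, lie between -1.05 and -0.67, and none of the circles passed the test.

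Other bHLH genes were drawn from a list of 151 loci written from general knowledge of the family, of which 54 could be named on the array and 35 passed the filter. In ga-1, 1 of the 35 fell and 0 rose, against 0.685% and 0.126% of all probe sets. The gene that fell was AT4G29100, from 449.8, 445.9 and 409.5 in mock to 256.8, 216 and 226.5 with GA3, with no overlap (log2 change -0.90 ± 0.15 SE, limma adjusted p = 0.0056). In gid1 it read 449.2, 439.4 and 473.7 in mock and 336, 367.5 and 479.5 with GA3 (log2 difference -0.22 ± 0.15 SE, adjusted p = 0.94). Of the 35 log2 differences in ga-1, 20 were negative and 15 positive, with a median of -0.05.

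Others by smallest p were AT5G50915 (log2 difference -0.78 ± 0.18 SE, limma adjusted p = 0.056), AT3G57800 (0.57 ± 0.16, adjusted p = 0.15), AT1G05710 (-0.41), AT1G61660 (-0.75) and AT1G22490 (-0.67). AT3G57800 mirrored LHW. Its signals were 345.3, 297.8 and 347.3 in ga-1 mock and 515, 509.2 and 443.5 in ga-1 with GA3, then 353.9, 355.6 and 293.7 for gid1 in mock and 278.8, 208.4 and 215.2 for gid1 with GA3. Its arrays with GA3 thus lay wholly above mock in ga-1, as for 6.85% of probe sets, and wholly below mock in gid1, as for 4.37%. The share of probe sets with both was not counted. Its gid1 difference of -0.52 ± 0.16 (SE) was not called (limma adjusted p = 0.94), so an opposite response in gid1 is not shown. The difference of responses of AT3G57800, 1.09 ± 0.22 (SE), missed the threshold (limma adjusted p = 0.055). AT5G50915 had the reverse difference, -1.26 ± 0.25 (adjusted p = 0.053).

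With GA3 in both mutants, where limma called 1.26% of all probe sets, 4 of the 35 were called, AT5G50915 (log2 difference 1.47, adjusted p = 0.00026), AT4G29100 (0.75, adjusted p = 0.017) and AT2G31730 (0.74, adjusted p = 0.048) as higher in gid1 and AT3G57800 (-1.07, adjusted p = 0.0014) as lower. For GA3 in gid1, for gid1 against ga-1 in mock and for the difference of responses 0 of the 35 was called. There 3, 2 and 6 had an unadjusted p under 0.05, beside 838, 729 and 1039 of all 15922 probe sets. For GA3 in ga-1 and for the mutants with GA3 these counts were 7 and 10, beside 1246 and 1723. The share was larger among the 35 in each comparison, and this was not tested. That list was written after the members' values were seen. By the narrower rule of design given below, with 11 genes tested, the counts were 1 for GA3 in ga-1 and 2 for the mutants with GA3. They were 0 for GA3 in gid1, for gid1 against ga-1 in mock and for the difference of responses. Among genes that act with GA or jasmonate in growth or defence, SPT had a log2 difference of -0.0014 in ga-1, ALC 0.03, MYC3 -0.32 and MYC4 0.47, none of them called. The PIF, BEE and PRE genes could not be named on the array and were not analysed here.

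**Figure D4:**
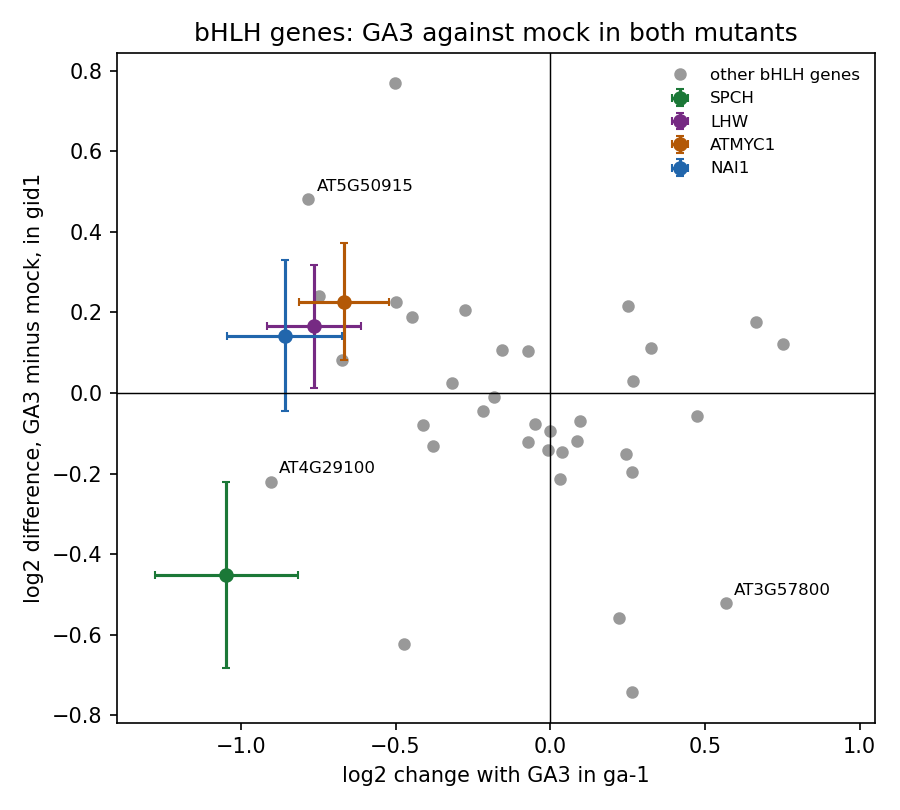
Log2 change with GA3 in ga-1 (x axis) against the log2 difference, GA3 minus mock, in gid1 (y axis) for 35 other bHLH genes (grey) and for SPCH, LHW, ATMYC1 and NAI1 (coloured, ± SE from limma on both axes). The group means on each axis come from different arrays, while the SE was estimated over all 12. The x axis is the comparison that chose the coloured genes. LHW, ATMYC1 and NAI1 lie left of 0 and slightly above it, SPCH lies lowest of the 4 on both axes, and AT3G57800 lies at 0.57 and -0.52.

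For scale, XERICO, a known DELLA-induced gene for a RING-finger protein, had a log2 change of -2.18 with GA3 in ga-1, and GID1B -2.68 and GID1A -1.68. The falls of SPCH, NAI1, LHW and ATMYC1, from -1.05 to -0.67 in log2, were smaller than each of these.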

How the data were processed

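The authors deposited linear intensities (signals), which their processing notes attribute to MAS5 without a version. On every array the mean without the lowest and highest 2% was 500.0. Groups were taken from the sample titles. A free-text description names GA3 for mock samples too, and the titles were followed. Signals under 1 were set to 1 before taking log2, 64 controls were dropped, and the filter removed probe sets whose mean log2 fell below the 30th percentile (5.55). In R 4.3.3, limma 3.58.1 (lmFit, eBayes with an intensity trend) estimated 4 group means from all 12 arrays together, with Benjamini-Hochberg adjustment over all probe sets tested and a threshold of 0.05. The fit was tested on simulated data. Precision is limited by having 3 arrays in a group. Replicate numbers did not pair the samples: the deviations of same-numbered arrays from their group means correlated by over 0.1 in 2 of 18 pairs.

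The members and lists were chosen with earlier results of these data known, and the list of 155 bHLH loci was written after the members' values were seen. By the narrower rule of design (genes called bHLH in the gene table or in the short lists), 14 other genes had a named probe set, 11 were tested and 0 were called in any of the 5 comparisons. Gene names came from the platform's annotation, updated from a TAIR10.1 gene table, and 13513 probe sets had 1 symbol. Promoter and protein sequences were not used here. Named genes were the members, the 3 most and 3 least similar genes to each, called list genes or up to 3 by smallest p, called bHLH genes or up to 5 by smallest p, and GID1A, GID1B and XERICO; other list genes are named for coverage. Alternatives covered scaling, filter, offset, prior, samples in the fit, weights, replicate block and each array left out.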

Additional observations from a re-analysis of the deposited data

Results flagged for a closer look

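For ATMYC1 every GA3 array lay below every mock array in ga-1, the comparison that chose the gene, and above every mock array in gid1. Over all probe sets, 7.17% lay wholly below in ga-1 and 4.74% wholly above in gid1. The gid1 change did not pass limma's test (log2 difference 0.23, 95% interval -0.08 to 0.53, adjusted p = 0.94), so an opposite response in gid1 is not shown. The difference of the responses, ga-1 minus gid1, was -0.89 ± 0.20 (SE) on the log2 scale and did not pass the adjusted threshold either (adjusted p = 0.11).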

How the results depend on the processing

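No log2 change with GA3 in ga-1 changed sign under any of the 16 alternatives run for each gene, but the calls were lost in 11 for SPCH, 10 for NAI1, 8 for ATMYC1 and 7 for LHW; the cause was not tested. No p-values are given for that comparison, since it chose the genes. With unchanged log2 changes, calls were lost without the low-value filter and in the compared groups alone for SPCH (-1.05), NAI1 (-0.86) and ATMYC1 (-0.67), and without the intensity trend for SPCH, NAI1 and LHW (-0.76). Under median centring that of NAI1 was lost (-0.85). The replicate block ended the calls of SPCH (-1.05) and ATMYC1 (-0.67), moved the called probe sets in ga-1 from 129 to 107, and changed no other call of the 4 genes; 4 of 12 arrays correlated best with an array of their own number. Leaving out 1 array gave ranges of -1.18 to -0.92 for SPCH, -0.85 to -0.67 for LHW, -0.73 to -0.60 for ATMYC1 and -1.01 to -0.65 for NAI1. For gid1 against ga-1 in mock, the sign of SPCH (-0.11 to 0.19) and LHW (-0.05 to 0.12) turned without single arrays, at values of -0.11, -0.09 and -0.01 for SPCH and of -0.02 and -0.047 for LHW. With GA3, NAI1 ranged from 0.51 to 0.80 and was called at 0.80. The seed-marker covariate, chosen after seeing the data, ended the ga-1 calls of SPCH (-1.04), LHW (-0.64) and NAI1 (-0.83). It also ended the call of LHW between the mutants with GA3 (0.66). The covariate moved the difference of responses of LHW from -0.93 to -0.47 and that of ATMYC1 from -0.89 to -1.23. It turned the sign of LHW in gid1 (-0.18) and of ATMYC1 in mock (-0.0030). The calls of LHW and ATMYC1 in gid1 against ga-1 with GA3 held in 15 and 16 of 16 alternatives. These refit the same arrays, among them the ga-1 GA3 arrays that entered the choice of the genes, so they are no independent support. No detection calls were used, so the share of signal near background is unknown. Over all probe sets, the calls without the intensity trend went from 129 to 60 in ga-1, from 35 to 12 for the difference of responses and from 201 to 110 between the mutants with GA3. With the seed-marker covariate the last 2 became 2 and 26. In the compared groups alone the calls were 5 in gid1 and 120 between the mutants with GA3, and the replicate block gave 1 in gid1. In mock, 3 calls became 0 with the stricter filter and 5 without gid1 mock replicate 2. Leaving out 1 array gave 66 to 102 calls in ga-1 (lowest without ga-1 mock replicate 2), 17 to 65 for the difference, up to 1 in gid1, and 125 with GA3 without gid1 GA3 replicate 2.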
